A study of Mus musculus with 14 samples.

Results

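The 9 genes described here encode insulin (Ins1 and Ins2), amylin (Iapp), the proteins that fold, cut and trim these hormones (Ero1lb, Pcsk1, Pcsk2, Cpe and Pam) and an inhibitor of the cutting (Pcsk1n). They were chosen by gene symbol. All 9 were found among the 52459 genes of the table, and all 9 passed the filter on low counts. The RNA came from dispersed islet cells of male C57BL/6J mice, an inbred strain, aged 7 months. A cell sorter had divided the cells by beta-galactosidase activity at acidic pH, a lysosomal activity used as a marker of senescent cells. There were 7 negative and 7 positive libraries, numbered 1 to 7 in each group. The labels name no transgene, drug or diet in either group, and do not say whether a library came from 1 animal or from a pool. They name no sort on a beta cell marker, so a library can hold every islet cell type. In bulk RNA, fewer cells of a type and less RNA per cell cannot be told apart.

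Beta cells make insulin as preproinsulin, which loses its signal peptide on entry into the endoplasmic reticulum and folds there as proinsulin, with disulfide bonds formed by oxidases such as the product of Ero1lb. In the secretory granule the convertases PC1/3 (Pcsk1) and PC2 (Pcsk2) cut proinsulin at pairs of basic residues, and carboxypeptidase E (Cpe) trims the new ends. Amylin is stored in the same granules, is cut in the same way and is amidated by the product of Pam, while proSAAS, the product of Pcsk1n, inhibits PC1/3.

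Mice have a pair of insulin genes, so the stretches that a 50-base read cannot assign to either one bear on both counts. In GENCODE M21 transcripts on GRCm38, the coding sequences of Ins1 (327 bases) and Ins2 (333 bases) were identical at 302 of 327 aligned bases, or 92.4%. Of the 1013 windows of 50 bases in the Ins1 transcript, 7 (0.691%) also occurred in Ins2, and 114 (11.3%) did so with up to 2 mismatches. In the Ins2 transcript the same numbers made up 1.39% and 22.7% of 503 windows. Shown here are the longest coding runs that are identical in both genes. All of their bases are in capitals because all are shared.
Run of 56 bases: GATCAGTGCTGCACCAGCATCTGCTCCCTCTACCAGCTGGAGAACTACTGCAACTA
Run of 49 bases: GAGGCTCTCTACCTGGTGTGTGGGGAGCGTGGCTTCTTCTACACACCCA
The run of 56 bases lies in exon 2 of the transcript used for each gene, at chr19:52264894-52264949 on the plus strand for Ins1 and chr7:142678714-142678769 on the minus strand for Ins2. The run of 49 bases lies at chr19:52264732-52264780 in exon 2 of the Ins1 transcript and at chr7:142679377-142679425 in exon 1 of the Ins2 transcript used. How reads that fit both genes were counted is not known here, so the levels of both genes are uncertain. The windows weigh all positions of a transcript alike, so their shares do not measure how large that uncertainty is.

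The promoters of Pcsk1n, which was called between the groups, and Iapp, which was not, show how the sequence before the start differs among these genes. RefSeq start sites on GRCm38.p6 were matched for 7 of the 9 genes (Ero1lb under the symbol Ero1b), and Ins2 and Cpe were not matched. Each line gives the 250 bases before the start. Capitals mark TAAT or its reverse ATTA, a core bound by homeodomain factors, and CATCTG or its reverse CAGATG, an E-box. The run ATTAAT in Iapp holds an overlapping pair of matches to the first motif.
Pcsk1n, chrX:7919572-7919821, plus strand: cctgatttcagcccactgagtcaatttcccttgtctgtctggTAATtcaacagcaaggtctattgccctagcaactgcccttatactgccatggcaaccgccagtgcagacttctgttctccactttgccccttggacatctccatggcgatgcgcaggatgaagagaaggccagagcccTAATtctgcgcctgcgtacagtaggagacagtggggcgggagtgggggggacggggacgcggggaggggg
Iapp, chr6:142298175-142298424, plus strand: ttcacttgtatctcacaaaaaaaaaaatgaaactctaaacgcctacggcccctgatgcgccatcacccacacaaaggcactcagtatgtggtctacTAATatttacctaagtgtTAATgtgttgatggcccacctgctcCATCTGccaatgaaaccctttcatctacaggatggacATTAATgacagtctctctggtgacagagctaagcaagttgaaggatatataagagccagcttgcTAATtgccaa
The Pcsk1n window held 2 TAAT and 0 CATCTG matches, and the Iapp window held 5 and 1. Of 32851 RefSeq windows of this length, 54.9% held TAAT and 14.4% held CATCTG on either strand. Ins1 had 3 and 1 matches, Pcsk1 had 1 and 0, and Pcsk2, Ero1lb and Pam had 0 of both. A match is a description of the letters only.

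Total counts ran from 11060144 to 23045934 reads in the negative group and from 15585779 to 24577025 in the positive group. Levels are given as CPM, a gene's count divided by the scaled depth of its library. Gene by gene, the groups were compared with edgeR's quasi-likelihood test, and a gene was called at a Benjamini-Hochberg adjusted p below 0.05. A blocked fit, with the replicate number as a term, was run beside it, since same-numbered libraries deviated together. Cell identity was read from marker lists, in which no gene was at 0 throughout a group. The 10 beta cell markers summed to 2339.5 to 4006 CPM in the negative and 2180.0 to 3165 CPM in the positive group, with 1 called lower (Trpm5) and 7 in the blocked fit. The most abundant of them, G6pc2, had 922 ± 191 CPM in the negative and 829 ± 123 CPM in the positive group (SD, n = 7 each). Markers of several other cell types differed between the groups. The 10 endothelial markers summed to 4.45 to 63.1 CPM in the negative and 348 to 1197 CPM in the positive group, and the 10 macrophage markers to 17.1 to 23.4 CPM in the negative and 73.6 to 631 CPM in the positive group. All 10 of each list were called higher (all 10 and 9 in the blocked fit). Delta cell markers summed to 81.8 to 435 CPM in the negative and 309 to 2198 CPM in the positive group, with 2 of 3 tested called higher, Sst and Hhex. Alpha cell markers, mostly Gcg, summed to 10682 to 28429 CPM in the negative and 3626 to 27652 CPM in the positive group, with 1 of 8 called lower (Slc7a2). Acinar markers summed to 131 to 1345 CPM in the negative and 25.96 to 759 CPM in the positive group, with 4 of 10 tested called lower (Cpb1, Pnlip, Cel and Clps) and 8 in the blocked fit. Of 6 stromal markers 3 were called higher (Pdgfrb, Rgs5 and Des), yet negative 3 had the largest stromal sum, 1123 CPM against 11.5 to 53.3 CPM in the other negative libraries. Of 3 PP and epsilon cell markers and 4 duct markers tested, 0 were called (0 and 1, Spp1, in the blocked fit). Beside these counts, 1.63% of all genes tested were called lower and 6.4% higher. In the blocked fit these shares were 7.77% and 11.8%. The part of the listed cell types in the differences described next was not tested.

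**Figure D1:**
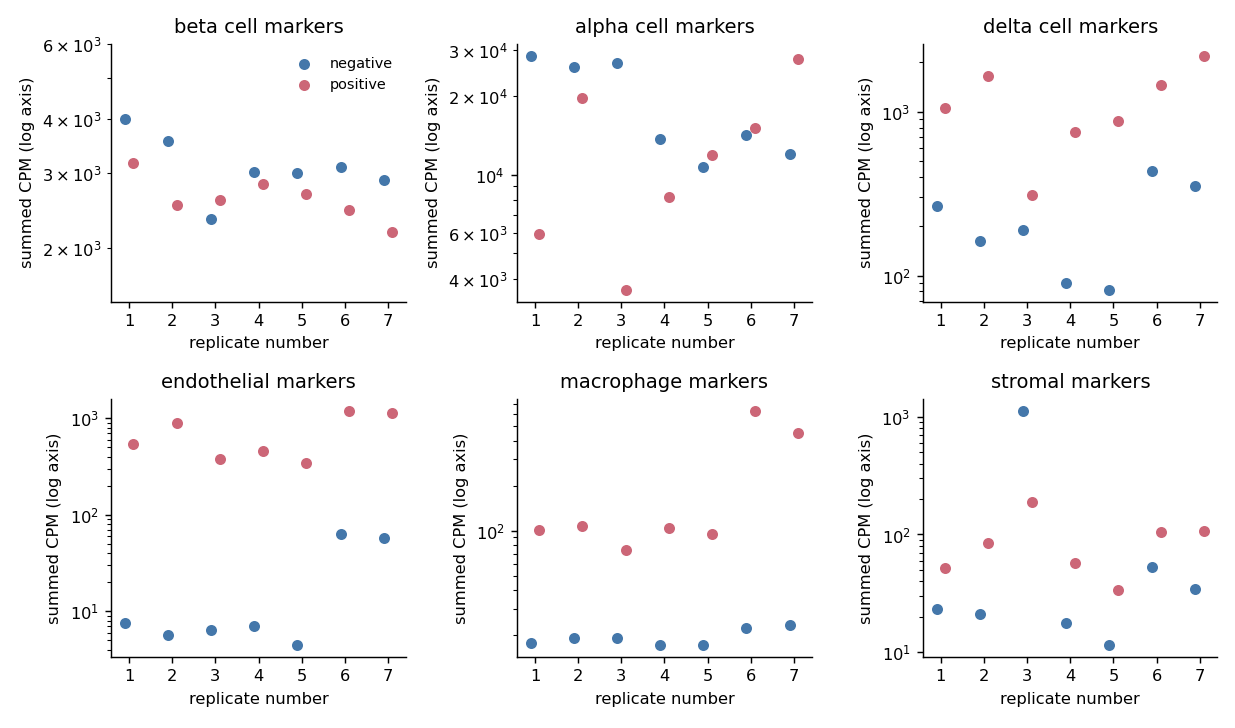
Summed CPM (log axis) of 6 lists of cell type markers against replicate number, 1 point per library, negative libraries in blue and positive ones in red. Endothelial and macrophage sums were higher in every positive than in every negative library, macrophage sums were highest in positive 6 and 7 (631 and 447 CPM), and the stromal sum was highest in negative 3 (1123 CPM).

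Together the 9 genes took 14.2 ± 1.42% of all reads in the negative and 12.4 ± 1.05% in the positive group (SD, n = 7 each). Most of these were insulin reads, at 11.9 ± 1.38% and 10.2 ± 0.902%. Levels of different genes can be compared only per length of transcript. On the scale of CPM per kilobase of 1 GENCODE transcript, averaged over the 14 libraries, Ins2 was highest at 138329, then Ins1 at 32451 and Iapp at 16709. Cpe followed at 1347 and Pcsk2 at 559. On the same scale Pcsk1n was at 256, Ero1lb at 206, Pam at 189 and Pcsk1 lowest at 93.7. The hormones thus lay above every enzyme. The lengths used were 552 bases for Ins2 and 1062 bases for Ins1, though their coding sequences are 333 and 327 bases. The gap between the insulin genes on this scale therefore depends on the transcript chosen. Before division by length, the means of Ins2 and Ins1 were 76358 and 34463 CPM. Ero1lb was above Pam in the negative group (214 and 174 CPM per kilobase) and near it in the positive group (198 and 203). Neither of these genes was called between the groups.

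Of the 9 genes 1 was called, Pcsk1n, which fell in the positive group. The blocked fit called 2, Pcsk1n and Ins1, both lower. Among all 16350 genes tested, 8.03% were called, 1.63% lower and 6.4% higher, and in the blocked fit 19.6%, 7.77% lower and 11.8% higher. The lower calls, 266 in number without the block, were 616 without negative 3 and 160, 140 and 162 without positive 3, 6 and 7. Among the 380 genes with an average of at least 300 CPM, where all of the members lie, 5% were called, 2.11% lower and 2.89% higher, and in the blocked fit 22.4%, 8.16% lower and 14.2% higher. With 9 genes, these counts set nothing apart from the background. The log2 differences (positive minus negative) had a median of -0.12 and were below 0 for 8 of the 9 genes. Over all genes tested the median was 0.00, and 8164 were below 0. The beta cell markers had a lower median, -0.376, with 10 of 10 below 0. For alpha cell markers it was -0.495, with 7 of 8 below 0. For 10 other granule genes it was -0.039, with 6 below 0. Acinar markers also had a median below 0, and the remaining marker lists had medians above 0. A shift below 0 was therefore not confined to the 9 members. The CPM ranges of the groups overlapped for all 9 members, whereas they did not overlap for 3.86% of all genes.

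**Figure D2:**
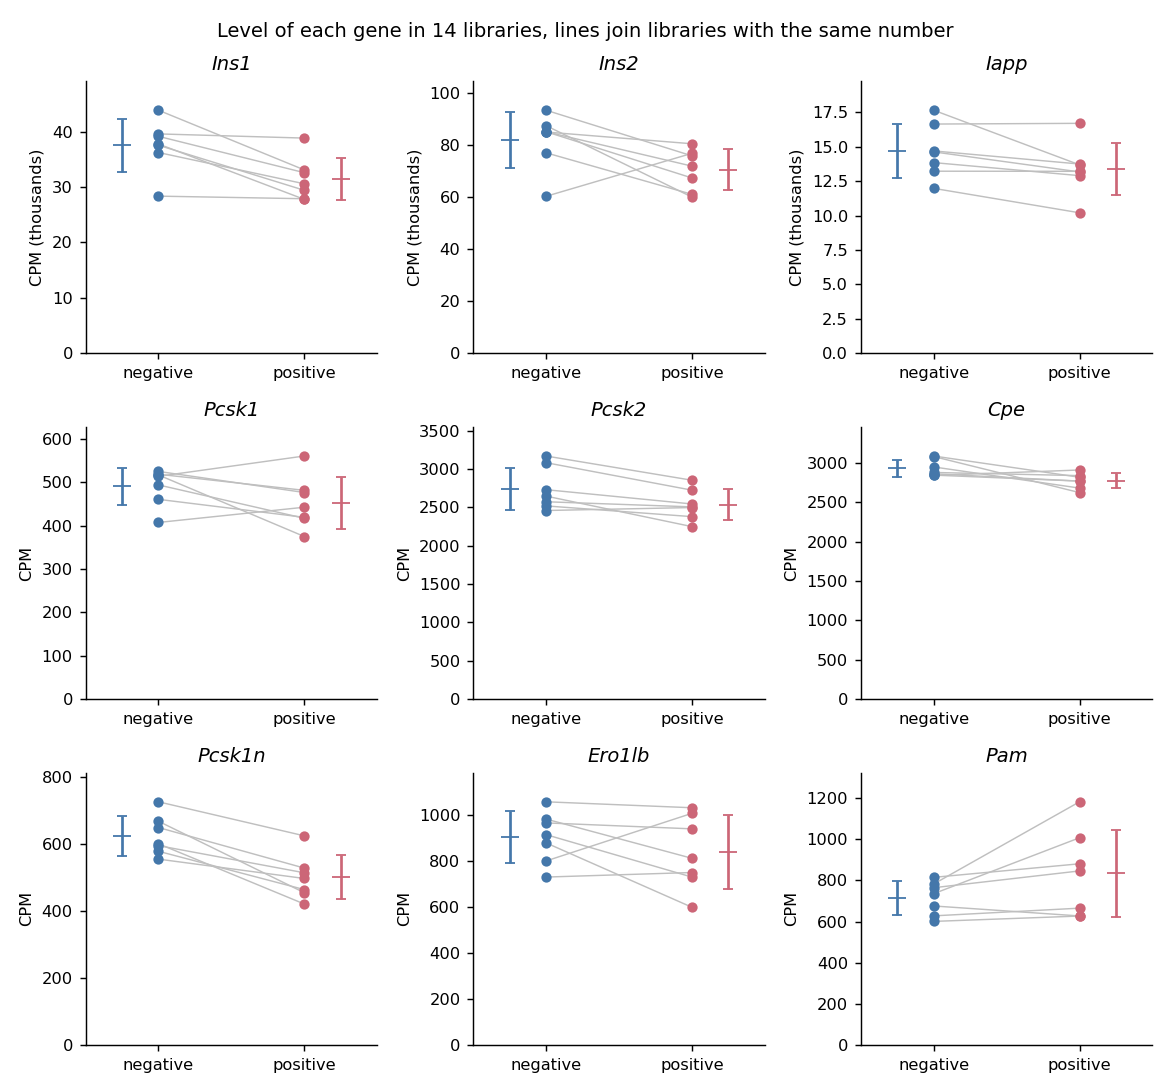
CPM of each of the 9 genes in the 7 negative (blue) and 7 positive (red) libraries, on axes that start at 0, with grey lines between libraries of the same number and the mean and SD beside the points. Lines of Pcsk1n and Ins1 went down from negative to positive in 7 of 7 pairs, and those of Pam went up in 6 of 7.

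Ins1 (chromosome 19, 52264297 to 52265476, plus strand, 2 exons) is the insulin gene that arose as a retroposed copy. Its level was 28346 CPM in the lowest, 37749.6 in the median and 43844 in the highest negative library. In the positive group these values were 27765, 30573 and 38815 CPM. Positive 1 was above the negative median and the other 6 positive libraries were below it, while negative 3 was nearly as low as the lowest positive library. The difference of -0.25 ± 0.10 on the log2 scale (SE; 95% interval -0.47 to -0.03) was not called (edgeR adjusted p = 0.165). In the blocked fit Ins1 fell, by the same amount with a smaller error (-0.25 ± 0.08, edgeR adjusted p = 0.0447). All 7 pairs were lower in the positive library, a pattern shown by 6.93% of all genes. Pairs 1 and 3 differed little (-0.03 and -0.02), and the other 5 by -0.44 to -0.24. The blocked call was lost without any 1 of the pairs 2, 4, 5, 6 or 7 (edgeR adjusted p = 0.0827 to 0.127), and without negative 3 Ins1 was called in the unblocked fit too (-0.33, adjusted p = 0.0295).

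Ins2 (chromosome 7, minus strand) is the ancestral insulin gene. The transcript used for it runs from 142678659 to 142679698 and has 2 exons, a number that holds for that transcript only. Negative libraries had a lowest level of 60429, a median of 85266 and a highest level of 93565 CPM. Positive libraries had 60141, 72045 and 80652 CPM. All 7 positive libraries were below the negative median, and the ranges overlapped. The log2 difference was -0.22 ± 0.11 (SE; 95% interval -0.44 to 0.01; edgeR adjusted p = 0.261), and -0.21 ± 0.10 in the blocked fit (adjusted p = 0.176). Pair 3 alone was higher in the positive library, with 60429 CPM in negative 3 and 76957 CPM in positive 3. Negative 3 was the library with the large stromal sum. It also had the lowest beta cell marker sum of its group, 2339.5 CPM against 2588 CPM in positive 3. Its PP and epsilon cell sum, 3579 CPM, was the highest of its group. The part of these cells in pair 3 was not tested. Without that pair Ins2 fell in the blocked fit (-0.32, edgeR adjusted p = 0.00854), and without the 4 libraries numbered 6 and 7 the unblocked difference was -0.13 (adjusted p = 0.775).

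Iapp (chromosome 6, 142298423 to 142303961, plus strand, 3 exons) encodes amylin. It had 11976 CPM in the lowest, 14625 in the median and 17649 in the highest negative library, and 10203, 13213 and 16696 CPM in the positive group. The ranges overlapped over most of their length, and number 7 was the lowest library of both groups. Iapp was not called, at -0.13 ± 0.11 on the log2 scale (SE; 95% interval -0.36 to 0.10; edgeR adjusted p = 0.531; blocked -0.13 ± 0.07, adjusted p = 0.194). Of the 7 pairs 6 were lower in the positive library, with pairs 1 and 3 at 0.00 on the log2 scale and pair 5 at -0.37. Without positive 1 the difference was -0.21 (edgeR adjusted p = 0.249).

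Pcsk1 (chromosome 13, 75089826 to 75134861, plus strand, 14 exons), which encodes PC1/3, had 408 CPM in the lowest, 514 in the median and 525 in the highest negative library. In the positive group it had 375, 443 and 561 CPM. Both the highest and the lowest of the 14 values were in positive libraries, numbers 1 and 2. No call was made, at -0.12 ± 0.09 on the log2 scale (SE; 95% interval -0.30 to 0.07; edgeR adjusted p = 0.484; blocked -0.12 ± 0.07, adjusted p = 0.25), with 5 of 7 pairs lower. Without positive 1 the difference was -0.19 (adjusted p = 0.164), and the blocked value was -0.08 without pair 2.

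Pcsk2 (chromosome 2, 143546156 to 143816285, plus strand, 12 exons), which encodes PC2 and is also expressed by alpha cells, had 2459, 2647 and 3170.1 CPM in the lowest, median and highest negative library. The positive group had 2249, 2507 and 2854 CPM. Numbers 1 and 2 were the highest libraries of both groups, and the ranges overlapped. The log2 difference of -0.11 ± 0.08 (SE; 95% interval -0.28 to 0.05) was not called (edgeR adjusted p = 0.452; blocked -0.11 ± 0.05, adjusted p = 0.185), with 6 of 7 pairs lower. Alpha cell markers, given above, overlapped widely between the groups, and their part in Pcsk2 was not tested. Antisense genes share 260 (Pcsk2os1) and 99 (Pcsk2os2) exon bases with Pcsk2. They were at 28.3 ± 4.25 and 15.3 ± 2.21 CPM in negative libraries and 24.6 ± 4.15 and 15.2 ± 3.03 CPM in positive ones (SD, n = 7 each), and reads of the shared bases are uncertain because the strand setting is not known here.

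Pcsk1n (chromosome X, 7919822 to 7924410, plus strand, 3 exons) encodes proSAAS, the inhibitor of PC1/3, and was the 1 gene called in both fits. Its level was 554 CPM in the lowest, 600.1 in the median and 725 in the highest negative library. In positive libraries the lowest was 420.4, the median 497 and the highest 624 CPM. Positive 2 lay within the negative range, and the other 6 positive libraries lay below every negative one. The means were 624 ± 59.4 and 499.9 ± 65.9 CPM (SD, n = 7 each). Pcsk1n fell by 19.9%, or -0.32 ± 0.09 on the log2 scale (SE; 95% interval -0.50 to -0.14; edgeR adjusted p = 0.0304). In the blocked fit the value was -0.32 ± 0.06 (edgeR adjusted p = 0.00299), and all 7 pairs were lower, from -0.56 in pair 1 to -0.16 in pair 4. The unblocked call was lost without positive 3 (-0.28, edgeR adjusted p = 0.0604), without positive 6 (adjusted p = 0.0566), without the 4 libraries numbered 6 and 7 (-0.34, adjusted p = 0.185) and with libraries scaled to 10 granule genes (-0.33, adjusted p = 0.0745). The blocked call was kept without each pair in turn (edgeR adjusted p = 0.00244 to 0.0111). Pairs 1 and 3 had the largest falls of Pcsk1n (-0.56 and -0.51). Alpha cell marker sums fell there from 28429 to 5948 CPM and from 26570 to 3626 CPM. In pairs 2 and 4 the alpha cell sums fell from 25790 to 19528 CPM and from 13681 to 8201 CPM. Pcsk1n differed by -0.22 and -0.16 in those pairs. In pairs 5, 6 and 7 the alpha cell sums were higher in the positive library, with Pcsk1n at -0.30, -0.32 and -0.21. The part of alpha cells in the level of Pcsk1n was not tested. Exons of Eras, on the opposite strand, overlap 135 bases of the Pcsk1n transcript, and Eras had 0.225 ± 0.141 CPM in negative and 0.127 ± 0.181 CPM in positive libraries (SD, n = 7 each).

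Cpe (chromosome 8, 64592542 to 64693054, minus strand, 9 exons), the carboxypeptidase that acts after the convertases, varied least. Its lowest, median and highest levels were 2839, 2877 and 3086 CPM in the negative group and 2621, 2767 and 2908 CPM in the positive group. The ranges overlapped, with a coefficient of variation of 3.69% and 3.49% against 7.98% to 25.4% for the other 8 genes. Cpe was not called, at -0.08 ± 0.06 on the log2 scale (SE; 95% interval -0.20 to 0.04; edgeR adjusted p = 0.432; blocked -0.08 ± 0.06, adjusted p = 0.332), with 6 of 7 pairs lower.

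Pam (chromosome 1, 97795114 to 98095646, minus strand, 26 exons), the amidating enzyme, was the 1 gene of the 9 with a difference above 0. Negative libraries had 601, 735 and 815 CPM as the lowest, median and highest level, and positive libraries had 627, 846 and 1182 CPM. Positive 1, 2, 6 and 7 lay above every negative library and positive 3, 4 and 5 lay within the negative range. Pam was not called, at 0.22 ± 0.14 on the log2 scale (SE; 95% interval -0.07 to 0.51; edgeR adjusted p = 0.381; blocked 0.19 ± 0.08, adjusted p = 0.115). It was higher in 6 of 7 pairs, and 11.1% of all genes were higher in all 7. Without pair 3 it rose in the blocked fit (0.23, edgeR adjusted p = 0.0447), without positive 7 the unblocked difference was 0.10, and without the 4 libraries numbered 6 and 7 it was 0.07 (adjusted p = 0.893). Pam was highest in positive 6 (1007 CPM) and positive 7 (1182 CPM). Those libraries also had the largest macrophage sums, 631 and 447 CPM against 73.6 to 107 CPM in the other positive libraries, and the largest endothelial sums, 1197 and 1152 CPM. Delta cell sums were 1056, 1655, 1454 and 2198 CPM in positive 1, 2, 6 and 7. They were 309, 755 and 873 CPM in positive 3, 4 and 5. PP and epsilon cell sums were 2865, 3539, 3193 and 5011 CPM in the former libraries and 868, 1805 and 2460 CPM in the latter. Negative 3 had a PP and epsilon cell sum of 3579 CPM and 676 CPM of Pam. The part of all these cells in the level of Pam was not tested.

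Ero1lb (chromosome 13, 12565874 to 12611396, plus strand, 16 exons), the oxidase of the endoplasmic reticulum, had 732, 917 and 1059.6 CPM in the lowest, median and highest negative library. The positive group had 600.0, 813 and 1034 CPM. The ranges overlapped, with positive 2 below every negative library and positive 7 level with the lowest, negative 1 (both 732 CPM). The pairs went both ways, from -0.55 on the log2 scale in pair 2 to 0.33 in pair 3, and Ero1lb was not called (-0.11 ± 0.12, SE; 95% interval -0.36 to 0.14; edgeR adjusted p = 0.654; blocked -0.12 ± 0.09, adjusted p = 0.384). The difference was -0.05 without positive 2, -0.17 without negative 1, -0.17 without positive 4 and -0.03 without the 4 libraries numbered 6 and 7. In the blocked fit it was -0.06 without pair 2 and -0.21 without pair 3, with no call in any of these.

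**Figure D3:**
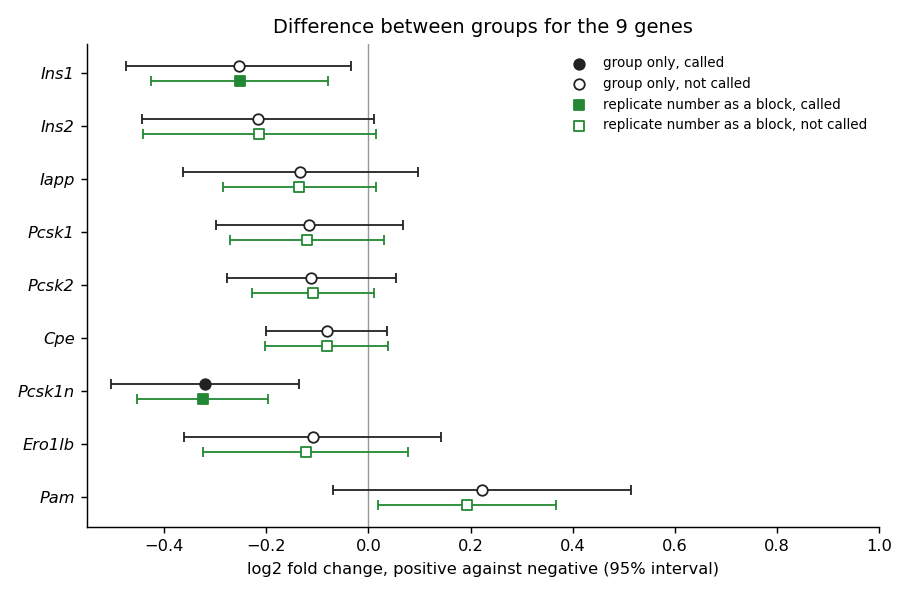
Log2 fold change (positive against negative) and its 95% interval for the 9 genes, from the fit with group only (black circles) and with the replicate number as a block (green squares), filled where called. Pcsk1n was called in both fits and Ins1 in the blocked one, and Pam alone lay above 0.

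Ratios between members were taken from the read counts of each library, where library scaling drops out. Of 5 ratios 0 differed between the groups by an exact two-sided permutation test, in which the smallest possible p is 0.000583. Ins1 to Ins2 was 0.458 ± 0.0283 in the negative and 0.449 ± 0.0683 in the positive group (SD, n = 7 each; log2 difference -0.04, exact permutation p = 0.661, adjusted over the 5 ratios 0.827). Negative libraries ran from 0.425 to 0.507. Positive libraries reached both further down, to 0.362 in positive 3 and 0.379 in positive 4, and further up, to 0.532 in positive 5 and 0.539 in positive 1. Iapp to both insulin genes was 0.124 ± 0.0213 in the negative and 0.131 ± 0.0132 in the positive group (log2 difference 0.09, exact permutation p = 0.432, adjusted 0.72). The lowest of the 14 values was in negative 7 and the highest in negative 5.

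Pcsk1 to Pcsk2, the convertases, was 0.18 ± 0.02 in the negative and 0.18 ± 0.0249 in the positive group (SD, n = 7 each; log2 difference -0.01, exact permutation p = 0.917, adjusted 0.917). Pcsk1n to Pcsk1, the inhibitor and its target, was 1.28 ± 0.159 in the negative and 1.13 ± 0.283 in the positive group (log2 difference -0.20, exact permutation p = 0.191, adjusted 0.58), lower in 5 of 7 pairs. Positive 2 had the highest of the 14 values, 1.66, and positive 1 the lowest, 0.81. Pcsk2 to both insulin genes was 0.0232 ± 0.0033 in the negative and 0.025 ± 0.0024 in the positive group (log2 difference 0.11, exact permutation p = 0.232, adjusted 0.58), higher in 5 of 7 pairs. Alpha cells also express Pcsk2, so this is not a ratio of convertase to substrate within beta cells. Neither the part of alpha cells in the ratios that hold Pcsk2 nor their part in Pcsk1n to Pcsk1 was tested. These p-values do not show that the ratios were equal.

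**Figure D4:**
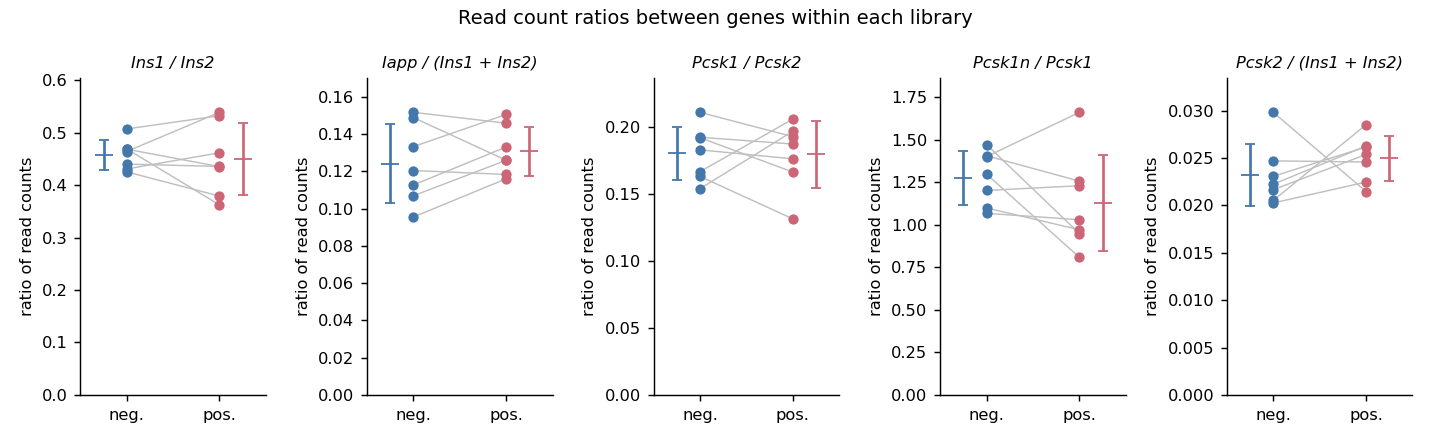
Ratio of read counts for 5 pairings of members in each library, on axes that start at 0, negative libraries in blue and positive ones in red, with lines between libraries of the same number and the mean and SD beside the points. The groups overlapped in all 5, and Ins1 to Ins2 spread over 0.362 to 0.539 in the positive group.

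Among 14 transcription factors that act on the insulin gene, Neurod1, an E-box factor, fell (217 ± 36.6 CPM in the negative and 164 ± 21.3 CPM in the positive group, SD, n = 7 each). Its log2 difference was -0.40 ± 0.11 (SE, edgeR adjusted p = 0.0303), and 13 of 14 were not called. In that fit 1.63% of all genes were called lower. The median of the 14 was -0.27, beside 0.00 over all genes. With the block, where 7.77% of all genes were called lower and 11.8% higher, 9 of the 14 fell and 0 rose. By size these began with Mafa, an activator of insulin transcription (-0.77, edgeR adjusted p = 0.0158), Neurod1 (-0.40, adjusted p = 0.0134), the homeodomain factor Nkx6-1 (-0.39, adjusted p = 0.00226) and Rfx6 (-0.35, adjusted p = 0.000228). Mafa, Nkx6-1 and Pdx1, another of the 9, are also on the list of beta cell markers. The most abundant factor, Insm1, had 282 ± 29.3 CPM in the negative and 274 ± 68.5 CPM in the positive group and was not called (blocked -0.07, adjusted p = 0.524). Delta, endothelial and macrophage markers were higher in the same positive libraries, and their part was not tested.

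Of 27 genes of entry into the endoplasmic reticulum and folding there, 0 were called, with a median log2 difference of 0.03. With the block 1 rose, Ero1l, the paralog of Ero1lb (165 ± 54.1 CPM in the negative and 209 ± 60.4 CPM in the positive group, SD, n = 7 each; blocked log2 difference 0.35 ± 0.08, SE, edgeR adjusted p = 0.00998), in 6 of 7 pairs. Over all genes tested, 8.03% were called without the block and 19.6% with it. The most abundant gene of the list, the chaperone Hspa5, had 2353 ± 202 CPM in the negative and 2708 ± 465 CPM in the positive group and was not called (log2 difference 0.20, edgeR adjusted p = 0.279; blocked adjusted p = 0.0873).

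Of 17 other proteases and modifying enzymes of the secretory pathway 14 were tested and 0 were called, with a median log2 difference of -0.06. In the blocked fit Furin, a convertase of the general secretory pathway, rose (0.18, edgeR adjusted p = 0.00751), in 7 of 7 pairs. Pcsk4 (-0.27, adjusted p = 0.0185) and the secretase Bace1 (-0.15, adjusted p = 0.0382) fell in that fit. Over all genes tested, 19.6% were called in the blocked fit, so these calls set nothing apart from the background. Of all genes, 11.1% were higher and 6.93% lower in all 7 pairs. Scg5, whose product 7B2 is a chaperone of PC2, was the most abundant, with 569 ± 27.3 CPM in the negative and 529.5 ± 28.0 CPM in the positive group (SD, n = 7 each). It was not called (log2 difference -0.10, edgeR adjusted p = 0.298; blocked adjusted p = 0.16), although 7 of 7 pairs were lower.

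Of 6 genes for receptors of insulin, insulin-like growth factor 1 and amylin, 5 were tested, and Ramp3, a partner protein in amylin receptors, rose (0.514 ± 0.247 CPM in the negative and 6.36 ± 4.29 CPM in the positive group, SD, n = 7 each; log2 difference 3.56 ± 0.47, SE). In the blocked fit Igf1r, the insulin-like growth factor 1 receptor (0.33, edgeR adjusted p = 0.00125) and Insr, the insulin receptor (0.19, adjusted p = 0.0137), rose too, each in 7 of 7 pairs. Of all genes, 6.4% were called higher without the block and 11.8% with it, and 11.1% were higher in all 7 pairs. Calcr, the receptor that such partner proteins join in amylin receptors, had too few reads to be tested. Its means were 0.03 CPM in the negative and 0.008 CPM in the positive group. Ramp1 and Ramp2, the other partner proteins listed, were called in neither fit (log2 differences -0.11 and 0.47 without the block). Endothelial markers were higher in the same libraries, and their part in Ramp3 was not tested.

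**Figure D5:**
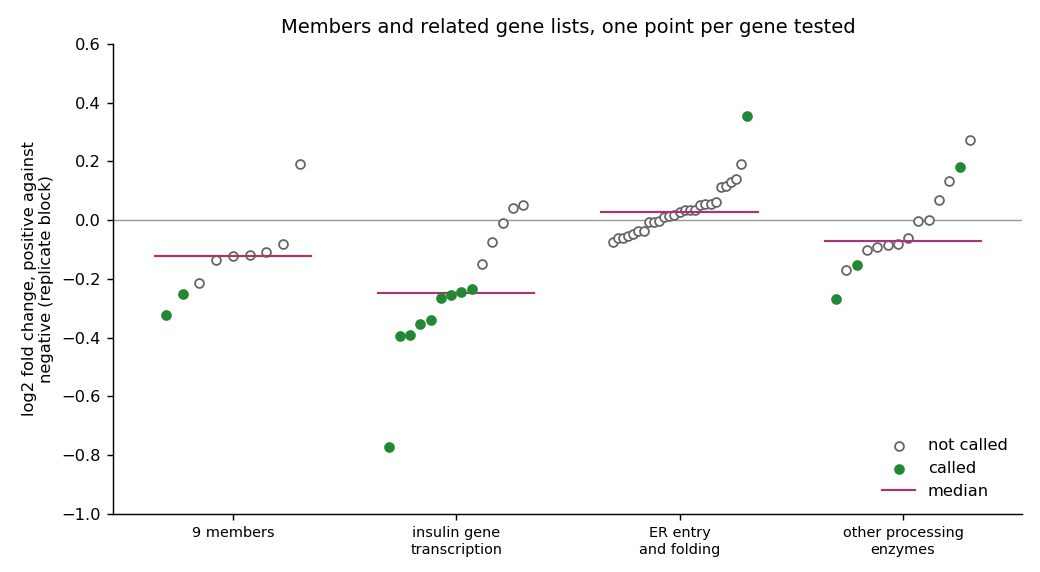
Log2 fold change in the blocked fit for the 9 genes and 3 lists of related genes, 1 point per gene tested, green where called, with a line at the median of each list. Of the insulin gene's transcription factors 9 of 14 were called lower, beside 7.77% of all genes. Of the folding genes 1 of 27 was called, beside 19.6% of all genes.

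The genes most like the hormones and convertases across libraries were ranked by Pearson's r of log2 CPM over the 14 libraries, after subtraction of the group means, among 6009 genes with a mean log2 CPM of at least 5. The libraries share depth and cell mix, so r is a description and was not tested. For Ins1 the nearest were Usp35 (0.943), Dusp18 (0.929) and Enho (0.921). Ins2 had lower values, with Bcl9 (0.842), Bace2 (0.801) and Vps50 (0.776), of which Bace2 is also on the list of processing enzymes. Those nearest to Iapp were Rec8 (0.878), Cdc123 (0.863) and C2cd4b (0.853). Pcsk1 was followed by Gng12 (0.94), Gfpt1 (0.875) and Lman1 (0.864), and Pcsk2 by Gm42047 (0.944), Cstf3 (0.937) and Hist1h1c (0.925).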

How the data were processed

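The authors deposited raw read counts per gene symbol for 14 libraries. Per the labels' protocols and the series' design text, polyadenylated RNA was made into directional libraries, sequenced as single reads of 50 bases, aligned to GRCm38 with Subread and counted with featureCounts. The annotation, the strand setting and the handling of reads that fit several genes were not stated in the labels.

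Each column was matched to its sample by the name in the labels. The test was edgeR 4.0.16 in R 4.3.3 (filterByExpr, TMM factors of 0.969 to 1.03, robust quasi-likelihood F-test, group as the only term, two-sided), with Benjamini-Hochberg adjustment over 16350 genes and calls below 0.05. It was first run on simulated data that held larger differences than those of the members and no replicate effect. That run says nothing of differences as small as the members'. Log2 CPM used a prior count of 2. Ratios were compared by exact permutation in SciPy 1.17.1. Library totals limit the precision of rare genes only, since the lowest member averaged 472 CPM.

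The replicate numbers were taken as pairs: over 16350 genes, the deviations of same-numbered libraries from their group means correlated at 0.203 to 0.541, and those of different numbers at a median of -0.125. What a number stands for is not in the labels. Neither is whether the libraries are independent animals, so a p-value reflects library-to-library spread, part of which may be technical. The members and lists were chosen with earlier results of these data known. Named genes are all members, the called genes of each related list in either fit (up to 4 by size) and its most abundant gene, the 3 nearest genes by correlation, and the most abundant marker. The other called markers were named after their values were seen. Alternatives were DESeq2 1.42.0, total counts, no filter, granule gene scaling, the block and left-out libraries. Transcripts were from GENCODE M21, promoters from RefSeq.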

Additional observations from a re-analysis of the deposited data

How the results depend on the processing

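Of 261 log2 differences of the members under all alternatives, 0 changed sign, 250 kept their side of the threshold, 7 gained a call and 4 lost one. Called members numbered 1 at first, 1 with DESeq2, total counts or no filter, 0 with granule gene scaling, and 0 to 2 with single libraries left out (2 without negative 3, 0 without positive 3 or 6). With the replicate block they numbered 2, also 2 with granule gene scaling, and 1 to 4 with single pairs left out (4 without pair 3). Without the 4 libraries numbered 6 and 7 they numbered 0, and 1 with the block. That setting and the combinations with the block were chosen after seeing the data. Over all genes 1313 were called, 2064 with DESeq2, 3200 with the block, 581 without libraries 6 and 7, and 965 to 1883 with single libraries left out. Of the calls 79.7% were higher, and 60.3% with the block. The block took the calls among transcription factors from 1 to 9, processing enzymes from 0 to 3, folding genes from 0 to 1 and receptors from 1 to 3. With single libraries left out, the log2 difference of Ins1 to Ins2 ran from -0.0852 to 0.0102 and that of Pcsk1 to Pcsk2 from -0.0483 to 0.0612, both through 0. Iapp to insulin ran from 0.03 (without negative 7) to 0.14 (without negative 5), Pcsk1n to Pcsk1 from -0.30 to -0.13 (without positive 1) and Pcsk2 to insulin from 0.08 to 0.18 (without negative 3). An exact sign-flip test of the 7 pairs, whose smallest possible p of 0.0156 cannot pass the threshold for a single ratio once adjusted over 5, gave p = 0.219 to 0.891 before adjustment and says nothing of stability. The cause of these changes was not tested.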
